A study of Rattus norvegicus with 16 samples.

Results

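The microRNA (miRNA) miR-122 (rno-miR-122 on the array), 1 of 350 rat miRNAs measured, was followed through blood plasma and kidney after an iodinated contrast medium or saline. It was chosen by its name in the scanner files, where 2 probes with 10 spots each carry it, and by its row in the authors' processed table. All groups were male Sprague-Dawley rats that had no water for 3 days and an intramuscular dose of furosemide, a diuretic, at 10 mg/kg, so the controls carry dehydration and the diuretic too. For contrast-induced acute kidney injury (CI-AKI), rats were injected through the tail vein with 10 ml/kg of Omnipaque, the contrast medium iohexol at 350 mg iodine in each ml, and the control rats the same volume of saline. Plasma and kidney were taken 8 h later. RNA of 3 rats made 1 pool, with 4 pools in each of 4 groups (control plasma, CI-AKI plasma, control kidney, CI-AKI kidney), 16 arrays in all. The plasma pools came from 24 rats, and these are all the rats if the kidney pools came from the same animals. The spread between pools is thus a spread between means of 3 animals. The rats' age is not given.

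MiR-122 is the leading miRNA of the hepatocyte, where it takes part in the control of cholesterol and fatty acid metabolism. Like other miRNAs it pairs with target mRNAs mainly through its seed, the stretch from base 2 to base 8, and lowers their output. It is scarce in most other organs, and hepatocytes that are damaged release it into blood, so that plasma miR-122 is widely read as a marker of liver injury. Most of it in healthy plasma is bound to proteins or carried in vesicles.

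The mature strand and its precursor are shown because what the array reads depends on them. The name on the array carries no arm, and by long-standing usage it stands for the 5p strand. Capitals mark the seed in the mature sequences and the mature strands in the hairpin, and all are from RefSeq on GRCr8, written 5′ to 3′.
miR-122-5p: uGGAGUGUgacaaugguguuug
miR-122-3p: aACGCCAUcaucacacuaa
Mir122 hairpin: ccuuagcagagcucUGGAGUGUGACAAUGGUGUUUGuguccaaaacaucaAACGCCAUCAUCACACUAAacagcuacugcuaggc
miR-3591: aACACCAUugucacacucca

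The hairpin lies at chr18:61028817-61028901 on the plus strand, with miR-122-5p at chr18:61028831-61028852 and miR-122-3p at chr18:61028867-61028885. In RefSeq's gene table the locus overlaps LOC134482951, a transcribed pseudogene, and Mir3591, a miRNA gene on the opposite strand. All 20 bases of mature miR-3591 are the reverse complement of bases of miR-122-5p, and miR-3591 is not on the array. The seed of miR-122-5p belongs to it alone among 694 mature rat entries, and the longest stretch it shares with any other of them is 9 bases. By seed and longest shared stretch, no other rat miRNA in the table is a close copy of miR-122-5p. These measures do not cover likeness with mismatches. An entry of the same name, arm ignored, was in the table for 255 of the 350 array miRNAs. The probe sequences themselves were not used here.

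Slide 1 carried all plasma and slide 2 all kidney arrays, so tissue and slide cannot be told apart. On both slides the control pools were in odd and the CI-AKI pools in even columns, so treatment and column cannot be told apart either. Detected miRNAs numbered 84 to 211 on plasma arrays and 169 to 216 on kidney arrays. The arrays of plasma pool 4 stood apart in both groups, with 84 and 95 detected miRNAs and a labelling spike-in (synthetic RNA added before labelling) of 78.6 and 217 against 1782 to 4566 on the other plasma arrays. The differences and correlations of plasma miR-122 are given with and without them. The samples also carry letter codes, 8 in each tissue, and for 6 of them the treatment label is opposite in plasma and kidney. What a letter stands for is not stated. Should a letter mark the same rats in both tissues, those treatment labels would contradict each other, which bears on every comparison of treatment below. Of the kidney epithelium list (miR-30a, miR-30c, miR-200a, miR-200b, miR-200c, miR-204 and miR-196a) 7 of 7 were detected on all 8 kidney arrays, beside 163 of all 350 miRNAs, and 2 of 7 on all 8 plasma arrays, beside 74 of 350. MiR-196a was detected on 8 kidney and 0 plasma arrays.

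MiR-122 was detected in every plasma pool and in no kidney pool. The scanner software called it detected on 8 of 8 plasma arrays and on 0 of 8 kidney arrays, a pattern shared by 4 of the 74 miRNAs detected on all plasma arrays. Array signals were divided by a scaling factor, the array's 75th percentile among miRNAs that every array of the tissue detected, and a scaled signal has arbitrary array units that compare the same miRNA between arrays, not different miRNAs. In control plasma, pools 1 to 4 had scaled signals of 2073, 1056, 2104 and 1829. In CI-AKI plasma, pools 1 to 4 had scaled signals of 1294, 2761, 1293 and 332. The highest and the lowest plasma pool both belonged to the CI-AKI group, and the 4 control pools lay between them, so the groups overlapped. The highest CI-AKI pool exceeded the lowest 8.31-fold, and the highest control pool exceeded the lowest 1.99-fold.

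**Figure D1:**
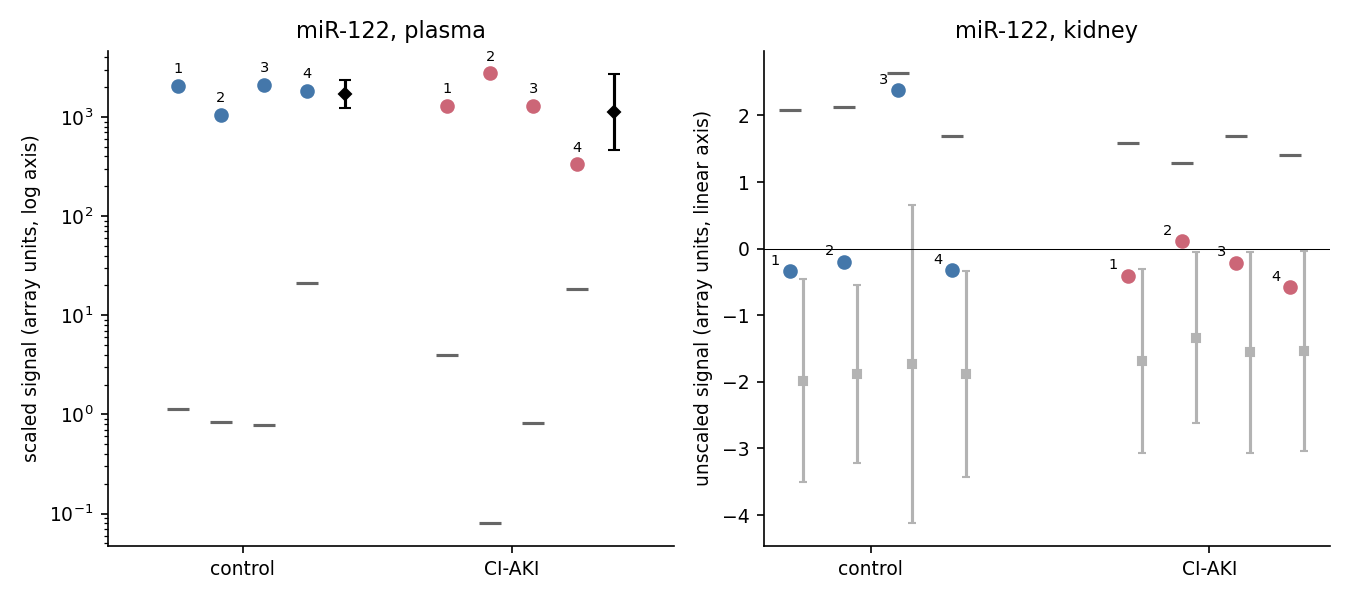
MiR-122 signal on each array, numbered by pool. Left, plasma: scaled signal on a log axis with the lowest detected signal of any miRNA on that array (grey dash) and the mean ± SD of the log2 values of 4 pools (black diamond and bar). Right, kidney: unscaled signal on a linear axis with the lowest detected signal (grey dash) and the mean ± SD of negative control spots (grey square and bar). Every plasma point lies far above its dash, down to 332 against 18.4 in CI-AKI pool 4, while every kidney point lies below its dash.

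On the kidney arrays the miR-122 spots read about as dim as spots that bind nothing. The background-corrected signal, before scaling, was -0.33, -0.20, 2.38 and -0.32 in control pools 1 to 4. It was -0.41, 0.12, -0.21 and -0.58 in CI-AKI pools 1 to 4. Control pool 3 was the highest of the 8, and the other 7 lay between -0.58 and 0.12. The lowest signal of any detected miRNA was 1.69 to 2.63 on the control arrays and 1.29 to 1.70 on the CI-AKI arrays, above miR-122 on each of the 8. Negative control spots averaged -1.98 to -1.34 on these arrays, 0.965 to 4.11 below miR-122, with a between-spot SD of 1.28 to 2.39. For miRNAs not detected on the same arrays the median signal was 0.044 to 0.620, so a small offset over the negative controls was common to undetected miRNAs. The total signal that the software lists for miR-122 on these arrays, 1.27 to 2.62, equals its own error estimate and is no measurement.

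Since miR-122 was below detection in both kidney groups, no fold was computed for kidney and no change could be seen or bounded there. It did not enter the kidney test, in which 3 of 176 miRNAs (1.7%) passed, nor the test of whether the contrast effect differs between plasma and kidney, in which 1 of 87 (1.15%) passed. In bulk RNA, fewer cells of a type and less RNA per cell cannot be told apart. Blood cell miRNAs were measured in the same kidney RNA: miR-451, which comes from red blood cells, had scaled signals of 216 to 438 in control and 364 to 402 in CI-AKI kidney pools and was detected on 8 of 8 arrays.

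The difference between tissues was large, and it can be given only as a lower bound. For this comparison the plasma and kidney arrays of a treatment were scaled together. In control pools, miR-122 had a scaled signal of 3739 ± 1015 (SD, n = 4) in plasma, from 2256 to 4430, and of 0.164 ± 0.628 in kidney. With each kidney array put at the lowest level at which a miRNA was detected there, and no lower than the floor used for all arrays, plasma was at least 2540-fold higher. In CI-AKI pools the signals were 2829 ± 2072 in plasma, from 689 to 5664, and -0.127 ± 0.124 in kidney, and plasma was at least 2103-fold higher. The lowest plasma pool thus stood far above the highest kidney pool under either treatment. Plasma lay above kidney with no overlap for 81 of 178 miRNAs (45.5%) in control and 76 of 181 (42%) in CI-AKI pools.

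No test is given for this difference, since miR-122 entered the comparison only through plasma and all its kidney values stood at the floor. Differences between these tissues were the rule: in limma with Benjamini-Hochberg adjustment 78 of 178 miRNAs (43.8%) were higher in control plasma and 80 of 181 (44.2%) in CI-AKI plasma, and 59 (33.1%) and 52 (28.7%) were lower. The bound moved with the processing. It fell to 76.3-fold and 38.7-fold with normexp background correction, whose offset of 50 lifts all dim values, and to 807-fold and 672-fold without scaling. Scaled to miR-16 it was 908-fold and 902-fold, to miR-23a 820-fold and 933-fold, and with the authors' processed values 1060-fold and 1332-fold, in control and CI-AKI pools. In control pools it was 1414-fold with quantile normalization and 1518-fold with the brightest probe. In CI-AKI pools it was 1208-fold without plasma pool 2, 4065-fold without plasma pool 4 and 3686-fold without kidney pool 3, all still plasma over kidney.

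Of the other liver-linked miRNAs on the array, none had this pattern. The list held miRNAs enriched in liver or released in rodent liver injury: miR-122, miR-192, miR-193, miR-194 and miR-148b-3p, while miR-148a was not on the array. All 4 others were detected on 8 of 8 kidney arrays, and in plasma on 8 arrays (miR-192), 6 (miR-193 and miR-148b-3p) and 4 (miR-194). MiR-192, which is abundant in kidney tubule, intestine and liver, was lower in control plasma than in control kidney, with a plasma minus kidney difference of -0.67 on the log2 scale (SE 0.13, adjusted p = 0.00185 in limma). The other 3 entered the comparison through kidney, where they were detected on every array. Their plasma minus kidney differences in control pools are thus given with no test: -5.59 for miR-194, -0.40 for miR-193 and -0.50 for miR-148b-3p. MiR-194 has 2 loci, of which the copy on chromosome 1 lies beside miR-192 and is transcribed together with it. The red blood cell miRNA miR-451, detected on all arrays of both tissues, was higher in control plasma, by 5.48 on the log2 scale (SE 0.26, adjusted p = 3.39e-07 in limma).

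The plasma comparison asked whether the circulating liver miRNA differed 8 h after contrast medium. Control pools averaged a scaled miR-122 signal of 1766 ± 489 (SD, n = 4) and CI-AKI pools 1420 ± 1002. On the log2 scale the means were 10.73 ± 0.47 and 10.12 ± 1.27. The difference was -0.61 (SE 0.57, 95% interval -1.88 to 0.65), and in limma it did not pass (unadjusted p = 0.304, adjusted p = 0.941, rank 25 of 96 miRNAs by p). No plasma miRNA passed (0 of 96, 0%), and 5 (5.21%) had an unadjusted p under 0.05 in limma. The interval, which is not adjusted for the number of miRNAs, covers differences of either sign. This fit did not pair the pools. With pools of the same number kept as pairs, the difference was -0.61 (SE 0.51, adjusted p = 0.725 in limma) and did not pass either.

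The plasma difference rested on CI-AKI pool 4. With that array left out and the scaling and tested miRNAs kept, the difference was -0.033 (SE 0.38, adjusted p = 0.986 in limma), and with pool 4 of both groups left out it was 0.0014 (SE 0.40, adjusted p = 0.997 in limma). Where the scaling and the tested miRNAs were also derived anew from the remaining arrays, these values were 0.0053 (SE 0.41, adjusted p = 0.995) and 0.26 (SE 0.42, adjusted p = 0.884) in limma. Without CI-AKI pool 2, the highest, it was -1.05 (SE 0.52, adjusted p = 0.72), and without control pool 4 it was -0.58 with the scaling kept and -0.45 with it derived anew. Within the upper slide row, which held pools 1 and 2 of each group, the difference was 0.35. Within the lower row, with pools 3 and 4, it was -1.58. Set pool against pool of the same number, CI-AKI minus control was -0.68, 1.39, -0.70 and -2.46 for pools 1 to 4.

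**Figure D2:**
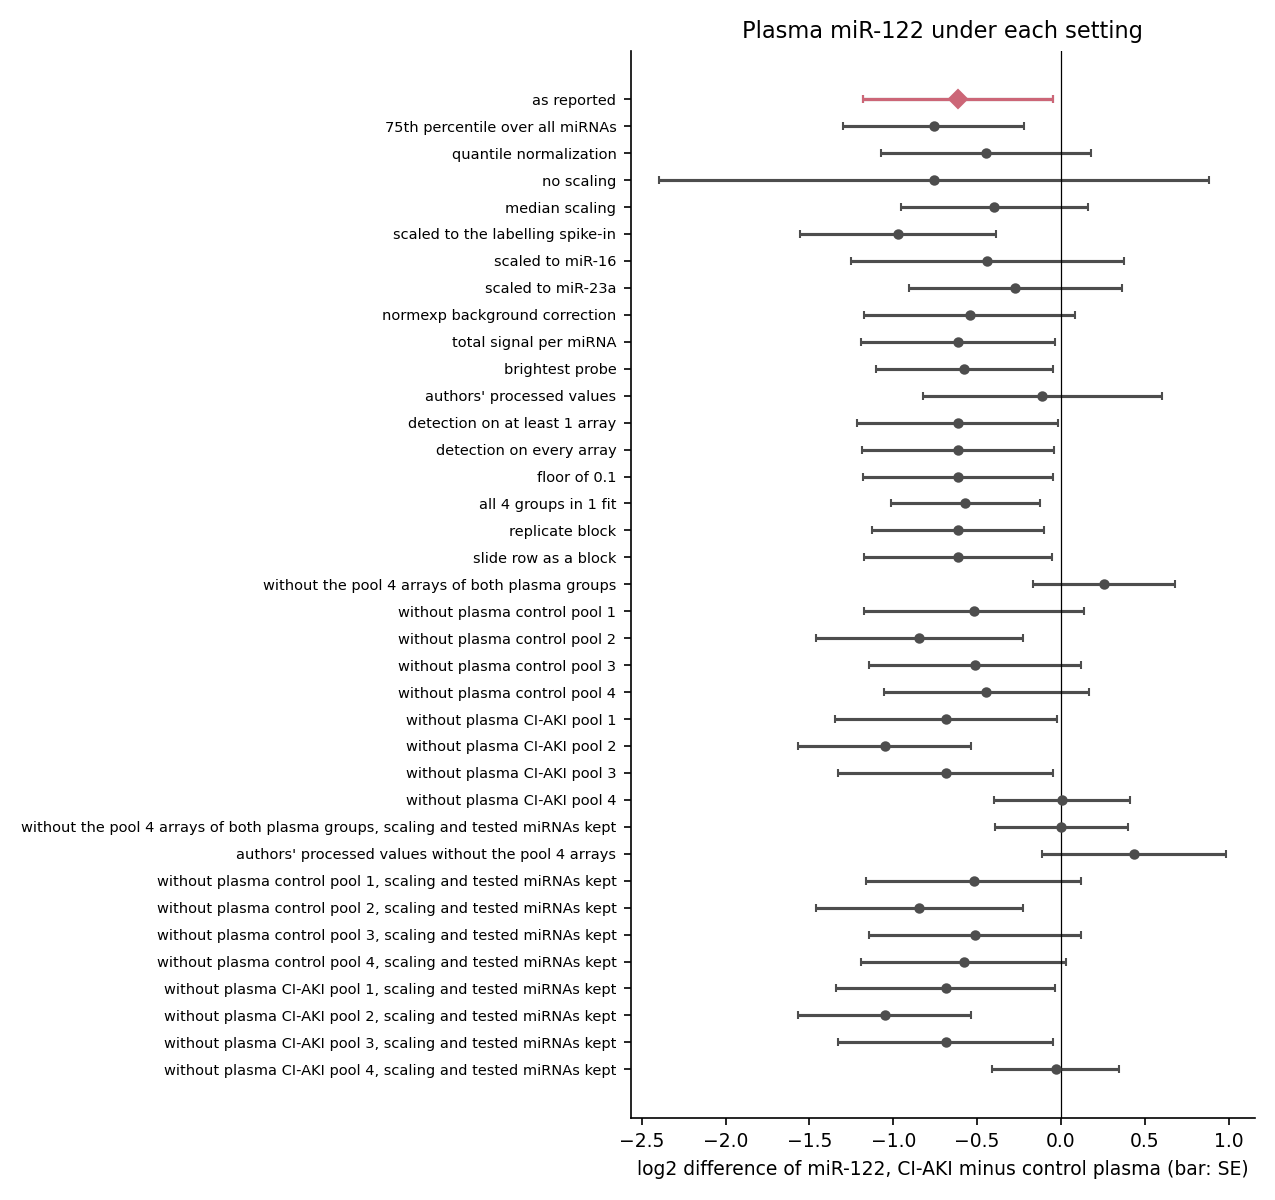
Log2 difference of plasma miR-122, CI-AKI minus control, as reported (diamond) and under each alternative setting (circles), with bars of 1 SE. The difference as reported is -0.61. Without CI-AKI pool 4 it is -0.033 with the scaling kept and 0.0053 with it derived anew, without pool 4 of both groups 0.0014 and 0.26, and in the authors' values without pool 4 it is 0.44.

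Pool 4 of the CI-AKI group was low in miR-122 on either scale. Before scaling, control plasma signals were 3671, 2399, 6488 and 179 for pools 1 to 4, and CI-AKI signals were 1061, 8711, 2278 and 59.9. Both pool 4 arrays were the dimmest of their group before scaling, but after scaling control pool 4 returned to the level of its group and CI-AKI pool 4 did not. MiR-122 made up 6.73% of the summed signal of detected miRNAs in control pool 4 and 1.12% in CI-AKI pool 4, against 3.56% to 7.90% in the other control and 4.26% to 10.5% in the other CI-AKI pools. Both pool 4 signals were well above the lowest detected signals of their arrays, 2.05 and 3.32 before scaling.

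The 2 probes of miR-122 ran in parallel over the plasma pools. Each had 10 spots, and the second probe read 1.45 to 1.87 times the first on the 8 plasma arrays. The lowest ratio, 1.45, was on the brightest array, CI-AKI pool 2, and the others were 1.69 to 1.87. The CI-AKI minus control difference was -0.57 for the first probe and -0.64 for the second on the log2 scale. In the upper row these were 0.45 and 0.30, and in the lower row -1.59 and -1.58. Spots of a probe varied by 1.25% to 10.2% of their mean (coefficient of variation) on the plasma arrays, and 0 spots were saturated.

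**Figure D3:**
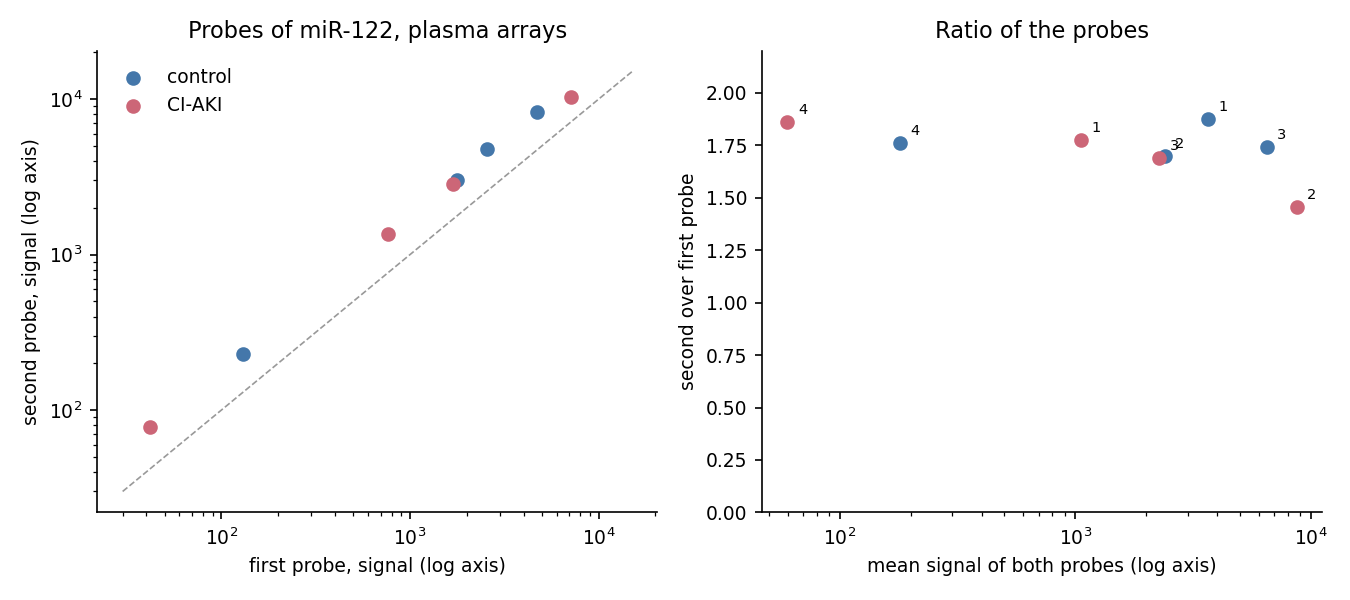
The 2 probes of miR-122 on the 8 plasma arrays before scaling. Left, second against first probe on log axes with the line of equality (dashed). Right, their ratio against the mean signal, numbered by pool; the ratio stays between 1.45 and 1.87, with the lowest value on the brightest array.

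Ratios within an array do not depend on its scaling, so miR-122 was also set against other miRNAs of the same plasma pool. Against miR-16, a red cell and platelet miRNA often used as a plasma reference, the log2 ratio was 0.80, -0.27, 0.65 and 0.60 in control pools and 0.62, 1.62, 0.30 and -2.51 in CI-AKI pools. The difference was -0.44 (exact permutation p = 0.771, two-sided) and 0.45 without pool 4. Against miR-23a, a reference that red cell lysis changes little, the ratio was 0.020, -0.94, 0.21 and -0.22 in control pools and -0.14, 0.79, -0.31 and -2.36 in CI-AKI pools, a difference of -0.27 (exact permutation p = 0.771) and of 0.35 without pool 4. In each of these ratios CI-AKI pool 2 was the highest and CI-AKI pool 4 the lowest of the 8 pools. Against miR-192, the other liver-linked miRNA detected on all plasma arrays, the difference was -0.11 (exact permutation p = 0.857) and 0.52 without pool 4, and there CI-AKI pool 1 was the highest at 3.64 and pool 4 the lowest at 1.27. Against miR-451 it was -0.53 (exact permutation p = 0.743) and 0.45 without pool 4. The share of the summed signal differed by -0.56 on the log2 scale (exact permutation p = 0.543) and by 0.12 without pool 4, and the unscaled signal by -0.76 (exact permutation p = 0.657) and -0.48. All 4 ratios and the share thus changed sign without pool 4, where the exact permutation p of the 7 measures ran from 0.4 to 1.0 and could not fall below 0.1. Over these 7 measures, the scaled signal included, with all pools the exact permutation p ran from 0.457 to 0.857, with an adjusted p of 0.857 for each. These labellings ignore the pool numbers, and the smallest p that 70 of them can give is 0.0286. With pools of the same number kept as pairs, the exact permutation p over 16 sign changes was 0.625 for 6 of the measures and 0.875 for the ratio to miR-192, and this design cannot go below 0.125.

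**Figure D4:**
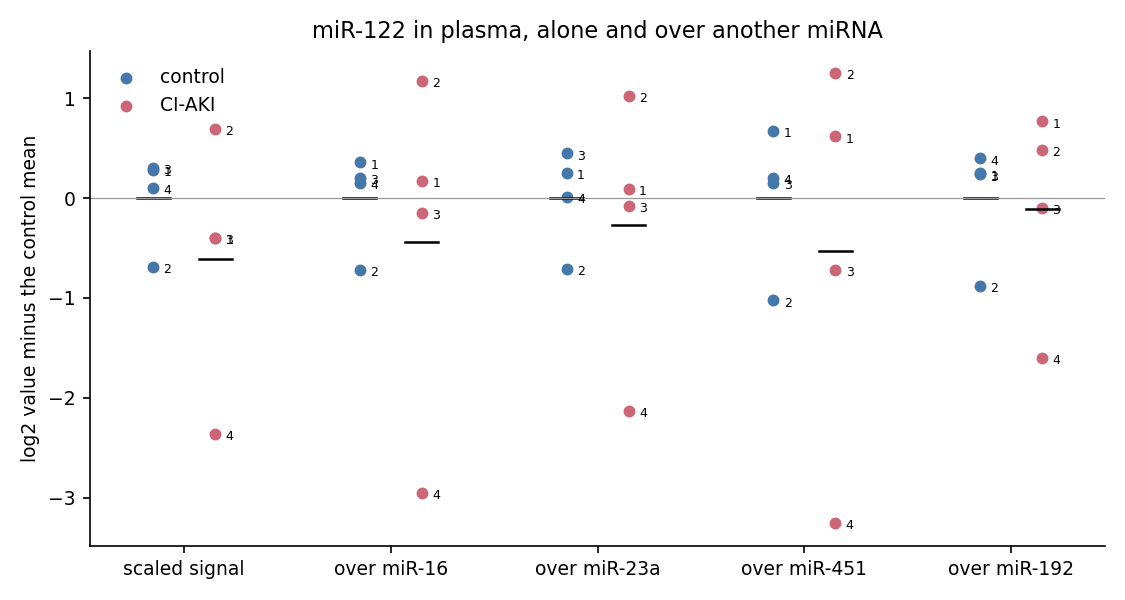
Plasma miR-122 in each pool (numbered points) as log2 scaled signal and as log2 ratio to miR-16, miR-23a, miR-451 and miR-192, each less the control mean, with group means as short lines. CI-AKI pool 4 is the lowest point in each of the 5 columns, for example at a log2 ratio to miR-16 of -2.51 against a control mean of 0.44.

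MiR-122 was among the more variable plasma miRNAs. Its log2 signal had a within-group SD of 0.959, the 8th largest of 96 tested miRNAs, whose median was 0.513 with a range of 0.0974 to 2.12. Without pool 4 of both groups its SD was 0.601, the 11th largest of the 74 miRNAs detected on all plasma arrays, whose median was then 0.415. MiR-192 was steadier, at scaled signals of 238, 266, 244 and 190 in control and 104, 270, 189 and 138 in CI-AKI plasma. It was 234 ± 32.1 and 175 ± 72.3 (SD, n = 4), a log2 difference of -0.50 (SE 0.32, adjusted p = 0.941 in limma) that did not pass. Of the liver-linked list, 2 of 5 were tested in plasma, miR-122 and miR-192, both with a lower mean in CI-AKI pools and 0 passing. Their median was -0.56, which includes miR-122 itself. Over all 96 tested miRNAs the median was -0.086, and 39 had a higher and 57 a lower mean. The untested members, not detected on all plasma arrays, did not share a direction. Their mean scaled signals in control and CI-AKI plasma were 15.6 and 18.3 (miR-193), 2.11 and 2.85 (miR-194), and 13.9 and 12.9 (miR-148b-3p). In kidney 4 of the 5 were tested, with differences from -0.056 to 0.075 and 0 passing.

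**Figure D5:**
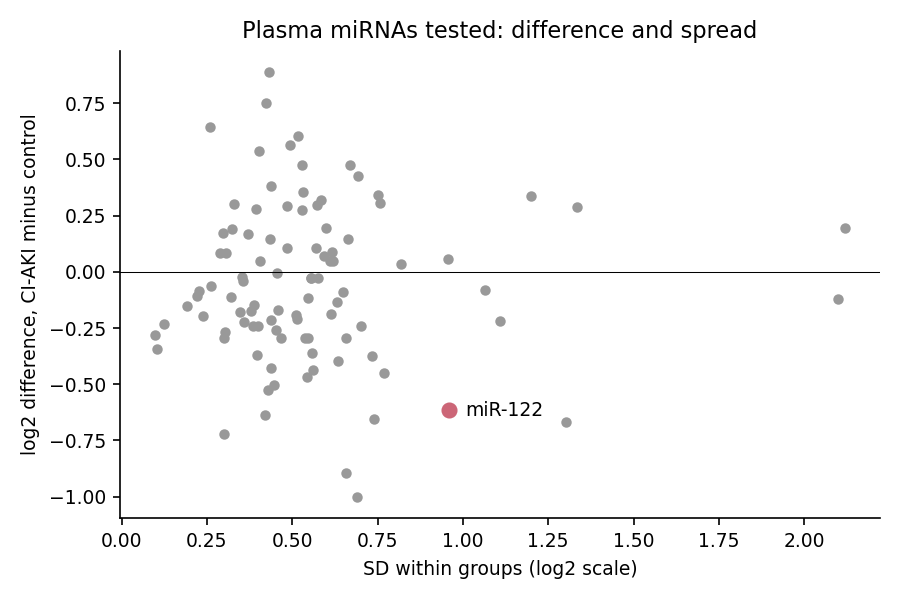
Each of the 96 plasma miRNAs tested, with its SD within groups (x axis, log2 scale) and its log2 difference, CI-AKI minus control (y axis). MiR-122 is marked at an SD of 0.959 and a difference of -0.61.

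Red cell content and array strength were set beside plasma miR-122, since the level of a circulating miRNA can move with both. The scaled signal of miR-451 was 2600, 4287, 3786 and 3174 in control pools and 1683, 2317, 4248 and 6340 in CI-AKI pools, highest in the pool with the least miR-122. Over the 8 plasma arrays, Pearson's r of the log2 signals of miR-122 and miR-451 was -0.66 (exact permutation p = 0.0718) and Spearman's rho -0.69 (p = 0.0694, exact permutation). It was -0.30 without the pool 4 arrays and -0.85 without the 2 arrays farthest from the miR-451 median. For the ratio of miR-451 to miR-23a, a common index of red cell lysis, r was -0.75 (exact permutation p = 0.0289), rho -0.62 (exact permutation p = 0.115), and r -0.35 without pool 4 and -0.20 without the 2 farthest arrays, so that the relation rests on those arrays. For miR-16 r was -0.68 (exact permutation p = 0.0752), rho -0.36 (exact permutation p = 0.389), and r -0.077 without pool 4 and -0.39 without the 2 farthest arrays, so that this relation too rests on those arrays. For miR-192 r was 0.54 (exact permutation p = 0.168), rho 0.55 (exact permutation p = 0.171), and r 0.42 without pool 4 and 0.24 without the 2 farthest arrays. For summed signal r was 0.47 (exact permutation p = 0.24) and for the labelling spike-in 0.42 (exact permutation p = 0.288), with rho 0.48 for both (exact permutation p = 0.243), and without pool 4, which are also the 2 farthest arrays, r was 0.45 and 0.36. Over these 6 relations the smallest adjusted p was 0.15. The part of lysis and of array strength in the plasma difference was not tested.

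The miRNA whose plasma pattern was most like that of miR-122 was miR-125b-5p, by Pearson correlation of log2 scaled signals over the 8 plasma arrays among the 73 others detected on all of them. Its r was 0.83 (rho 0.83), followed by miR-497 at 0.67, miR-214 at 0.65, miR-143 at 0.59 and miR-130a at 0.57. Over the 6 arrays without pool 4 the ranking ran over the 154 others detected on all 6. MiR-365 came first there at 0.86, then miR-352 at 0.78, miR-1 at 0.69, let-7d at 0.68 and miR-125b-5p at 0.65, the only 1 of these 5 that was also among the first 5 over 8 arrays. Over 8 arrays r was 0.36 for miR-365, -0.40 for miR-1 and 0.025 for let-7d, and miR-352 was not detected on all 8. The other 4 of the first ranking had r from -0.25 to -0.023 over these 6 arrays, so their likeness rests on the pool 4 arrays. Without the 2 plasma arrays farthest from the miR-122 median, r was 0.47 for miR-125b-5p and from -0.76 to -0.37 for those 4. The likeness of miR-125b-5p thus also leans on the extreme arrays. The median r over the 73 miRNAs was -0.11, and without scaling, where all share each array's strength, it was 0.92. These values describe a ranking made by r and carry no test.

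In the authors' processed table, which holds log2 values brought to the same distribution on all arrays, miR-122 stood at 12.21, 11.23, 12.05 and 11.62 in control and 11.62, 13.78, 11.40 and 9.87 in CI-AKI plasma. The same 2 CI-AKI pools were the highest and lowest there, and the difference was -0.11 (SE 0.71, adjusted p = 0.998 in limma), or 0.44 (SE 0.55, adjusted p = 0.856 in limma) without pool 4. In kidney the table lists 0.858, 0.860, 1.58 and 0.868 for control and 0.760, 0.684, 0.857 and 0.760 for CI-AKI pools, all from signals that the scanner software did not call detected.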

How the data were processed

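Per the file headers, the spot intensity was extracted by the authors with Agilent Feature Extraction 10.7.3.1 from 1-colour arrays; the deposited files give a processed, background-corrected intensity per spot and a detection call per miRNA. A deposited table holds the authors' log2 values, and how they were made is not stated in the labels or headers; against the scanner totals its columns had correlations of 0.988 to 0.998, its columns shared 1 distribution (quantiles within 0.0478) and a median of 2.28.

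Signals were averaged over spots of a probe, without outlier-flagged spots, then over probes. The scaling factor of an array was its 75th percentile among miRNAs that all arrays of the fit detected (74 in plasma, 163 in kidney, 66 and 84 between tissues in control and CI-AKI pools). Scaled values below a floor (median of the lowest detected signals, 0.976 in plasma) were raised to it, and log2 was taken. MiRNAs detected on all 4 arrays of a compared group were tested with limma 3.58.1 (R 4.3.3), two-sided, Benjamini-Hochberg adjusted, threshold 0.05, after a check on simulated data. Single values were compared with exact permutation tests, without and with the pairing by number. A bound sets the plasma mean against, per kidney array, the higher of its own signal, its lowest detected signal and the floor. The number of pools limits the precision. For normexp the median spot signal was used, as the files hold no mean.

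The member and the lists (liver-linked, erythroid, leukocyte, platelet and endothelial, muscle, brain, pancreas, kidney epithelium) were chosen with earlier results of these data known. Named are miR-122, the liver-linked list, miR-16, miR-23a and miR-451, the 5 miRNAs most like miR-122 in plasma with and without pool 4, and members of other lists. Up to 4 members of each other list were planned, and more are named for muscle and kidney epithelium. The neighbours of miR-122 in the order of tissue differences are not named, since it was not detected in kidney. MiR-1, miR-215 and miR-300-5p have the same detection pattern as miR-122. MiR-1 is inside the naming rule, as a muscle member and as 1 of the 5 most like miR-122 without pool 4. MiR-215 and miR-300-5p fall outside the rule and were chosen after seeing their values. Deviations from the group means correlated between plasma pools of the same number (0.22, 0.49, 0.62 and 0.60 for numbers 1 to 4). The numbers were therefore taken to pair the plasma pools in the replicate block and the paired permutation test, but not in the main fit. Same-numbered pools lay in neighbouring slide columns, and the part of slide position in these correlations was not tested. Figures were drawn with matplotlib 3.10.9.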

Additional observations from a re-analysis of the deposited data

Results flagged for a closer look

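Kidney control pool 3 stood apart from the other 3 control kidney pools in its miR-122 signal. Before scaling it read 2.38 against -0.33, -0.20 and -0.32, and the gap to the next pool was 0.9496 of the group's range. In the authors' table it read 1.58 against 0.858, 0.860 and 0.868, with a gap of 0.986 of the range. Both exceed Dixon's 95% critical value for 4 samples. MiR-122 was not called detected on that array, where the SD of negative control spots was 2.39 against 1.34 to 1.55 on the other control kidney arrays; the part of that noise in the value was not tested. Of 14 sets of values looked at, these were the ones past the critical value, and chance alone passes about 1 in 20. The sets are the same 4 groups on several scales and are not independent. Both sets past the value come from the same array, so they count as a single observation.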

How the results depend on the processing

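The plasma difference of miR-122 was -0.61, and it kept its sign in 32 of 36 alternatives and passed in 0 of them (adjusted p 0.608 to 1.0 in limma). Of the 36, 10 were chosen after seeing the data. Not all 36 could change the sign. The other detection filters, the floor of 0.1, the replicate block and the slide row block left the difference at -0.61. Some left-out pools also entered more than once at the same difference, with the scaling kept and derived anew. The count is therefore no measure of how firm the sign is. Without the pool 4 arrays of both plasma groups it was 0.0014 with the scaling and tested miRNAs kept, 0.26 with them derived anew and 0.44 in the authors' values. Leaving out each pool in turn gave -1.05 to 0.0053, the last without CI-AKI pool 4, where it was -0.033 with the scaling kept. With the replicate block, which pairs pools of the same number, the plasma difference was -0.61 (SE 0.51, adjusted p = 0.725), and the block changed no call of miR-122. Between tissues, deviations from the group means of same-numbered control pools 1 to 4 correlated at 0.0045, 0.33, 0.082 and 0.16. In CI-AKI pools 1 to 4 these correlations were -0.033, 0.15, -0.055 and -0.10. The numbers were not taken to pair pools between tissues. With the block the lower bounds on the log2 scale stayed at 11.31 and 11.04. Leaving out each pool gave log2 bounds of 11.01 to 11.76 for control pools and 10.24 to 11.99 after contrast medium, and the other alternatives gave 6.25 to 11.76 and 5.27 to 11.99. With detection required on every array miR-122 left the tests between tissues. No kidney value could be had in any setting. The contrast effect in plasma minus that in kidney could be fitted only with detection on at least 1 array. Kidney stood at the floor there, so the fitted -0.57 is the plasma difference with all arrays scaled together. It is no test of a difference between the effects. Counts of miRNAs past the threshold ran from 0 to 4 in kidney (3 as reported), 56 to 183 between tissues under saline (137), 64 to 179 under contrast medium (132) and 0 to 4 for the difference between effects (1); in plasma the count was 0 throughout. The causes of these shifts were not tested.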

Other observations

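Besides miR-122, the miRNAs detected on all 8 plasma arrays and on no kidney array were miR-215, miR-1 and miR-300-5p. MiR-215 had a mean scaled plasma signal of 280 ± 131 (SD, n = 8), from 96.8 to 449, and in control pools it was at least 521-fold higher in plasma than in kidney. It shares its seed with miR-192 and with no other rat miRNA in the table, yet miR-192 was detected on all 8 kidney arrays. Capitals mark that seed.
miR-192-5p: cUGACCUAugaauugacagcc
miR-215: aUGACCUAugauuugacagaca
MiR-1, a heart and skeletal muscle miRNA, had 76.7 ± 31.9, from 39.4 to 143, and was at least 96.4-fold higher in control plasma. MiR-300-5p had 50.1 ± 37.4 and a bound of 64.1-fold. In CI-AKI pools the bounds were 311-fold for miR-215, 139-fold for miR-1 and 69.8-fold for miR-300-5p.

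Over all 350 miRNAs, 74 were detected on all plasma arrays and 117 on none. The pool 4 arrays detected only 84 and 95 miRNAs, and their part in the counts of plasma arrays was not tested. Of 6 muscle miRNAs, 2 were detected on all plasma arrays (miR-1 and miR-133b), miR-133a and miR-206 on 6 of 8, miR-499 on 1 and miR-208 on none. In kidney miR-1, miR-133a, miR-206 and miR-208 were detected on 0 arrays, beside 126 of all 350 miRNAs detected on none. MiR-133b was detected on 6 and miR-499 on 8 of 8 kidney arrays. Of 3 brain miRNAs, miR-9 and miR-124 were detected on 0 plasma arrays and miR-128 on 7. Of 3 pancreas miRNAs, miR-216a and miR-217 were detected on 0 arrays of either tissue, and miR-375 on 6 plasma and 8 kidney arrays. Of the blood cell lists, 2 of 3 erythroid miRNAs, 4 of 4 leukocyte miRNAs and 2 of 3 platelet and endothelial miRNAs were detected on all plasma arrays. After contrast medium 0 tested plasma members of any of these lists passed in limma, beside 0 of all 96 tested miRNAs. Members with a higher mean numbered 1 of 3 erythroid, 2 of 4 leukocyte, 0 of 2 platelet and endothelial, 2 of 2 muscle, 0 of 1 brain and 1 of 2 kidney epithelium miRNAs. Over all 96 tested miRNAs, 39 had a higher mean. MiR-1 had a log2 difference of 0.30 (SE 0.38, adjusted p = 0.941) and miR-133b of 0.47 (SE 0.42, adjusted p = 0.941).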
